A study of Mus musculus with 24 samples.

Results

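F-box genes encode the substrate receptors of the SCF ubiquitin ligases. Of the 55401 genes in the count file, 76 carried a name that begins with Fbxo, Fbxw or Fbxl followed by a number and were taken as members, after Fbxo5, Fbxo43 and Fbxo46 had been left out of the 79 names that matched. The members are 19 Fbxl genes, 8 Fbxw genes found widely in mammals, 16 Fbxw genes of a rodent expansion (Fbxw13 to Fbxw28, called the rodent Fbxw genes below), 5 Fbxo genes of the subfamily that binds sugar chains on glycoproteins, and 28 other Fbxo genes. One of the 19 Fbxl names, Fbxl12os, is a transcript from the strand opposite Fbxl12.

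RNA was sequenced from mouse oocytes, 5 pooled per reaction, in 6 groups of 2 libraries. The labels name 2 control groups, con and con-in vitro, and say no more of either. Polystyrene microplastics (PSMPs) are named as in vivo PSMPs or in vitro PSMPs, here read as exposure in the animal or in culture, and these were set against con and con-in vitro. A further group is labelled SAHA, an inhibitor of histone deacetylases, and the last combines PSMPs with overexpression of the histone deacetylase gene Hdac3 (PSMPs & OE-Hdac3). The labels do not say which control belongs to SAHA or by which route the PSMPs & OE-Hdac3 oocytes were exposed, so each was set against both candidates. Strain, age, oocyte stage and dose are not given in the sources used here.

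An SCF ligase has a scaffold, the cullin Cul1, which carries the RING protein Rbx1 and, through the adaptor Skp1, one exchangeable F-box protein. The F-box motif binds Skp1, and a second domain picks the substrate: WD40 repeats in the Fbxw proteins, leucine-rich repeats in the Fbxl proteins and a range of other folds in the Fbxo proteins. In oocytes SCF ligases are known for removing cell cycle regulators and maternal proteins, and the rodent Fbxw genes are known as a family expressed mainly in the oocyte.

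Total counts ranged from 6.22 M to 35.6 M per library and were lowest in con-in vitro. The pair of in vivo PSMPs columns agreed more closely than counting noise alone would leave (chi-square per degree of freedom 0.444, median chi-square 0.0146, equal counts in 15.6% of genes). The other groups gave 16.5 to 384 per degree of freedom. The pair entered as 1 sample, which leaves 11 libraries. Whether its columns share reads was not tested. Hdac3 stood at 336 and 228 CPM (counts scaled to a fixed library total, with TMM factors) in PSMPs & OE-Hdac3 and at 7.17 to 37.4 CPM in the other libraries. All 12 oocyte markers searched were in the file, and their summed level was 10036 and 10579 CPM in con-in vitro against 15221 to 41303 CPM elsewhere. Gdf9, Mos, Oosp1 and Dppa3 were each lowest in con-in vitro, but not every marker was. Bmp15 stood at 3921 and 3208 CPM there, against 1845 and 2146.5 CPM in con. Markers of blood and of stroma summed to at most 3.92 CPM in any library, and 20 markers of cumulus and granulosa cells to 6.56 to 135 CPM. The labels do not state whether libraries of a group stem from different animals, and p-values therefore reflect only how far these libraries spread. In these bulk samples fewer cells and less RNA per cell cannot be told apart. All adjusted p-values below come from edgeR's quasi-likelihood test with Benjamini-Hochberg adjustment over 16736 genes, log2 fold changes are given ± standard error, and a gene "rose" or "fell" where its adjusted p was under 0.05.

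The rodent Fbxw genes supplied most of the F-box RNA. Of the 16, 15 lie together on chromosome 9, in 651.2 kb from base 109139447 (Fbxw21) to base 109790670 (Fbxw27) of mm10, where the file has 24 genes in all. Fbxw17 lies on chromosome 13 (bases 50417864 to 50433780). Promoters for 13 of the 16 were found by symbol among the RefSeq sequences (build GRCm38.p6), as for 57 of the 76 members. The 250 bases before the start of 6 of them are printed 5′ to 3′ in the direction of the gene: the 3 members of highest level, then Fbxw20, Fbxw23 and Fbxw17, which depart from the shared pattern. The start is that of RefSeq. For Fbxw23 it lies apart from the gene as counted, which ends at base 109534858, while the window begins at base 109543190. The other printed windows lie at or within a few bases of their counted gene. Whether this bears on the letters missing from the Fbxw23 window was not tested. Capitals mark TTTAAAA and CAGCTG.
Fbxw24 (chr9:109626060-109626309, minus strand): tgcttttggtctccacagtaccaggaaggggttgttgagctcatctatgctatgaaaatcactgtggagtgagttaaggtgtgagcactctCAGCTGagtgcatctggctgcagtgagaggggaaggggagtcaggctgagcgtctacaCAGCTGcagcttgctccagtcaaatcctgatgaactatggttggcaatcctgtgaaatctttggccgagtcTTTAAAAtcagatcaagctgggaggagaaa
Fbxw14 (chr9:109287677-109287926, minus strand): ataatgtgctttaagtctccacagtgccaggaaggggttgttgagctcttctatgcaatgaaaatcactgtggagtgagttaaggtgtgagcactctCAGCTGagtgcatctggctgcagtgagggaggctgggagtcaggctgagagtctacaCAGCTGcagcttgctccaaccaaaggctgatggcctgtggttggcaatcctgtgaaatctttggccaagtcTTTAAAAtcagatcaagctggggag
Fbxw28 (chr9:109339660-109339909, minus strand): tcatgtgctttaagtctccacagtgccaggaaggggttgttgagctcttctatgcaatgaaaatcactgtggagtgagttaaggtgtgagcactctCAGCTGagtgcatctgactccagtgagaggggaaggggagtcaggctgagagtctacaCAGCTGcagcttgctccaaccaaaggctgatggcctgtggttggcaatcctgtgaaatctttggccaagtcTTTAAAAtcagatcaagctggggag
Fbxw20 (chr9:109234755-109235004, minus strand): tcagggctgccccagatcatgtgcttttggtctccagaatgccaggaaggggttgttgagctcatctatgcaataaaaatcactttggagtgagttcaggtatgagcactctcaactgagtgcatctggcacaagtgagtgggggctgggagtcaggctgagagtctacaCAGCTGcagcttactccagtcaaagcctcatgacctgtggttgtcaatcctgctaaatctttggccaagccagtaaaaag
Fbxw23 (chr9:109543190-109543439, minus strand): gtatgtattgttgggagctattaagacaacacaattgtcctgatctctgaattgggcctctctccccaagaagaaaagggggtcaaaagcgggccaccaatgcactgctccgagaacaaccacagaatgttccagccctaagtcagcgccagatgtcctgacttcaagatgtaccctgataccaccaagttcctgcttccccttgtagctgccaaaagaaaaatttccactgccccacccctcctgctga
Fbxw17 (chr13:50417614-50417863, plus strand): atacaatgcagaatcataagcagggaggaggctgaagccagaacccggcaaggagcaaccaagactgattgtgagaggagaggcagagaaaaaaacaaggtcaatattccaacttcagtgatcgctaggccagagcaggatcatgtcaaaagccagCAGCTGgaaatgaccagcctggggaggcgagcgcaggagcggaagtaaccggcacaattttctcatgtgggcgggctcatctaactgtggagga

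Leaving out Fbxw17 and Fbxw23, the 11 promoters were 84.7% to 98.4% identical over their aligned bases (median 91.1% of 55 pairs), and the closest pair was Fbxw14 and Fbxw28, at 98.4% over 247 bases. The sequence TTTAAAA was found on either strand in 10 of the 13 promoters and in 8.0% of all 27025 RefSeq promoters cut to the same 250 bases. Its first base lay 10 to 54 bases before the start, and Fbxw20, Fbxw23 and Fbxw17 did not have it. CAGCTG, an E-box, was in 12 of 13, all but Fbxw23, and in 12.8% of all promoters. The canonical TATA box letters TATAAA were in 0 of 13 (13% of all) and TAATTG in 0 of 13 (7.34%), while GGGCGG was in 2 (32.9%) and CCAAT in 2 (34.5%). The 11 alike promoters also shared AAATCTTTGGC, which 15 of the 27025 promoters (0.0555%) hold. This stretch was chosen after the sequences had been compared. Such matches describe the letters and do not show that a factor binds there.

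The rodent Fbxw genes are known as paralogs, and how the authors treated reads that match several genes is not given in the sources used here. Sequences of the genes themselves were not compared, so how far reads could be shared between them was not tested. Between the in vivo PSMPs columns, Fbxw28 had 55034 counts in one column and 44759 in the other, and Fbxw14 had 49364 and 43678. By chi-square these were the 2 largest departures from counting noise among 14655 genes compared between the columns. In all 46 genes departed, Fbxw19 among them (29275 and 28155 counts). For these 3 genes column 2 was the lower, and none of the other 13 rodent Fbxw genes departed from counting noise. That yardstick is lax here, because most genes agreed more closely than counting noise (median chi-square 0.0146). Of the other 13 rodent Fbxw genes, all but Fbxw25 and Fbxw17 lay above that median. Fbxw24 (chi-square 2.43), Fbxw20 (2.05) and Fbxw15 (1.07) were farthest above it, and Fbxw16 (0.0173) and Fbxw13 (0.0150) only just above. Levels of single rodent Fbxw genes are given as uncertain for these reasons.

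Together the members took 0.372% to 2.89% of the counts of a library. The rodent Fbxw genes alone took 0.680% and 0.998% in con, 1.10% and 1.05% in the in vivo PSMPs columns, and 0.211% and 0.175% in con-in vitro. They took 2.56% and 2.10% in in vitro PSMPs, 2.35% and 2.34% in SAHA, and 0.862% and 1.02% in PSMPs & OE-Hdac3. The high libraries were thus those of in vitro PSMPs and SAHA, the low ones those of con-in vitro, and neither set overlapped the rest. The other 60 members together stayed between 0.198% and 0.367% of the counts. On the normalised scale the rodent Fbxw genes summed, in CPM, to 3895 and 3055 in con-in vitro, 5499 and 6548 in PSMPs & OE-Hdac3, 7261 and 9168 in con, and 8421 in in vivo PSMPs. They summed to 20875 and 21290 CPM in in vitro PSMPs and to 25518 and 25876 CPM in SAHA. Con and in vivo PSMPs did not separate in that order, while every other neighbouring pair of groups did. By share of counts, PSMPs & OE-Hdac3 overlapped con and in vitro PSMPs overlapped SAHA, so these separations rest on the TMM factors.

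**Figure D1:**
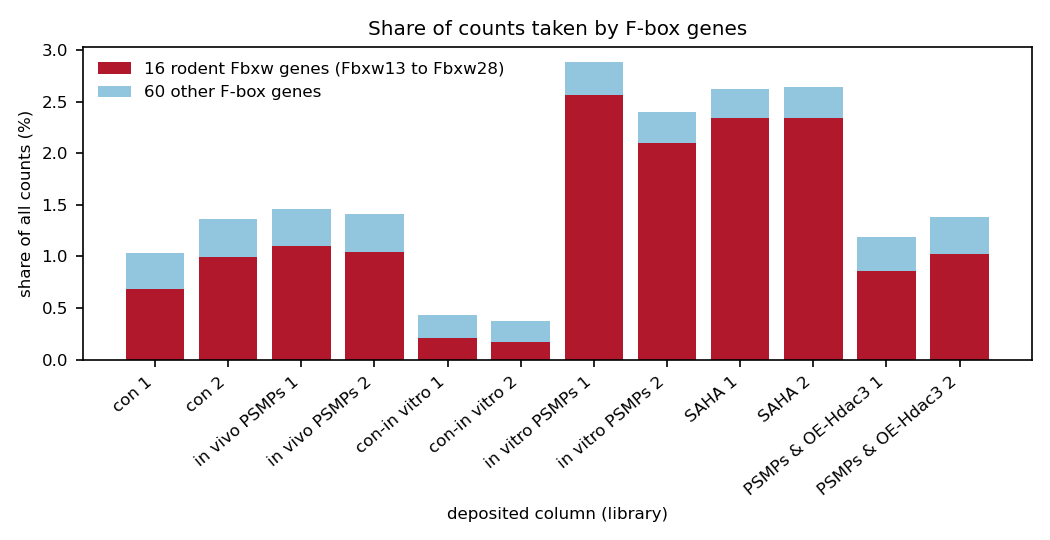
Percent of all counts (vertical axis) in each of the 12 deposited columns (horizontal axis), with the 16 rodent Fbxw genes in red and the 60 other F-box genes in blue on top. The red part is lowest in con-in vitro (0.211% and 0.175%) and highest in in vitro PSMPs and SAHA (2.10% to 2.56%), while the blue part stays between 0.198% and 0.367%.

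Per kilobase of exon, the scale on which genes can be compared with each other, the 12 members of highest level were all rodent Fbxw genes. Fbxw24 led with 1711 CPM per kb averaged over the 6 groups, rank 17 among all genes of the file. Fbxw28 followed with 1013 CPM per kb (rank 40), Fbxw14 with 962 (rank 43) and Fbxw18 with 830 (rank 52). The first member outside the rodent Fbxw genes was Fbxl6, at 111 CPM per kb (rank 437). In all, 19 members were among the 1000 genes of highest level per kilobase, and 15 of them were rodent Fbxw genes. Along the cluster, high and low genes stood side by side: Fbxw23 averaged 52.0 CPM per kb between its neighbours Fbxw19 at 362 and Fbxw15 at 325 CPM per kb. Fbxw24 (ENSMUSG00000062275.7) spans bases 109601116 to 109626057 of chromosome 9, Fbxw28 (ENSMUSG00000054087.11) bases 109322886 to 109339659 and Fbxw14 (ENSMUSG00000105589.4) bases 109270790 to 109287676.

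The members of the cluster did not all follow one pattern. The level of Fbxw15, in CPM, was 133 and 439.8 in con, 569 in in vivo PSMPs, 269 and 211 in con-in vitro, 943 and 478 in in vitro PSMPs, 533 and 568 in SAHA, and 463 and 661 in PSMPs & OE-Hdac3. Fbxw21, the first gene of the cluster, stood in the same order of groups at 51.4 and 309, 393, 361 and 206, 601 and 566, 392 and 492, and 398 and 457 CPM. For both genes the con libraries were far apart, and PSMPs & OE-Hdac3 overlapped SAHA. Fbxw16 stood at 114 and 255, 251, 133 and 134, 554 and 353, 442 and 499, and 288 and 350.3 CPM. Fbxw20 stood at 193 and 297, 316, 98.2 and 47.0, 631 and 382, 511 and 509.8, and 196 and 246 CPM. For these 2 genes in vitro PSMPs and SAHA were highest on the TMM scale and did not overlap the other groups. For Fbxw16 the gap was narrow (353 CPM against 350.3 CPM in a PSMPs & OE-Hdac3 library). With library totals the groups overlapped for both genes. Fbxw26 stood at 62.9 and 143, 256, 168 and 88.0, 799.6 and 342, 331 and 670.4, and 164 and 197 CPM, and Fbxw27 at 158 and 188, 214, 117 and 85.8, 379.6 and 316, 320.1 and 358, and 152 and 199 CPM. Replicates of Fbxw26 differed more than those of Fbxw27 within in vitro PSMPs and SAHA, but on the TMM scale both genes had these groups on top. Fbxw17, apart on chromosome 13, stayed between 0 and 20.6 CPM and did not share that order.

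**Figure D2:**
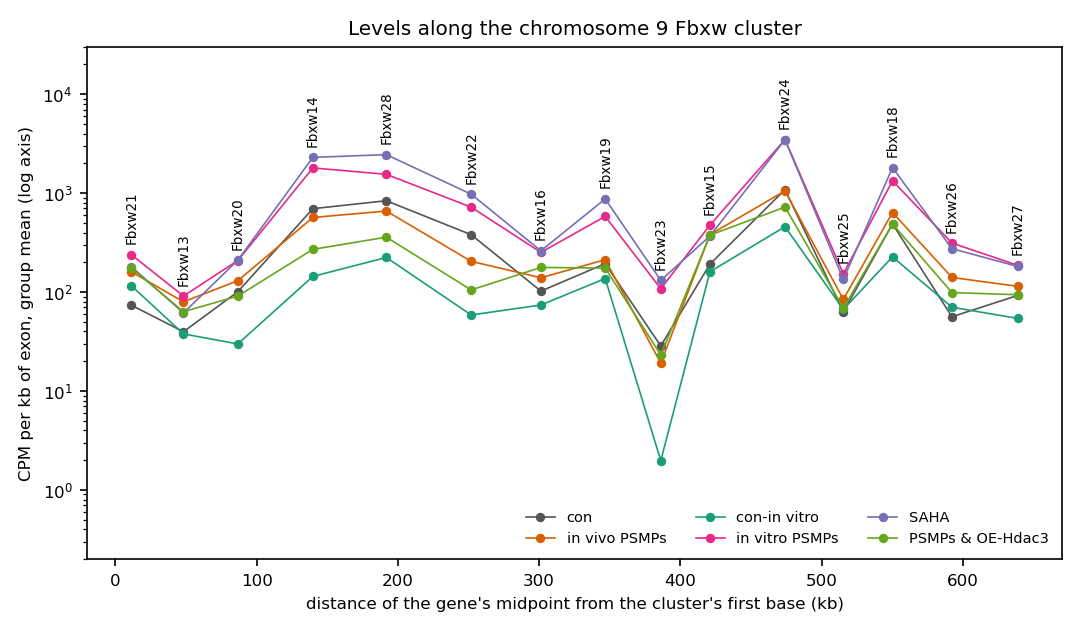
Mean level of each of the 15 clustered genes in the 6 groups (CPM per kb of exon, log axis) against the distance of the gene's midpoint from the first base of the cluster (kb), lines joining the genes of a group. For most genes the SAHA and in vitro PSMPs points are highest and the con-in vitro point is lowest, with the widest gap at Fbxw23.

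Of the 76 members, 67 passed the filter on low counts and were tested. The other 9 were Fbxl12os, Fbxl16, Fbxo24, Fbxo39, Fbxo41, Fbxo48 and 3 of the 5 sugar-chain genes, Fbxo2, Fbxo6 and Fbxo44. None of these 9 exceeded 0.890 CPM in any library, and Fbxo44 was at 0 in every one.

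**Figure D3:**
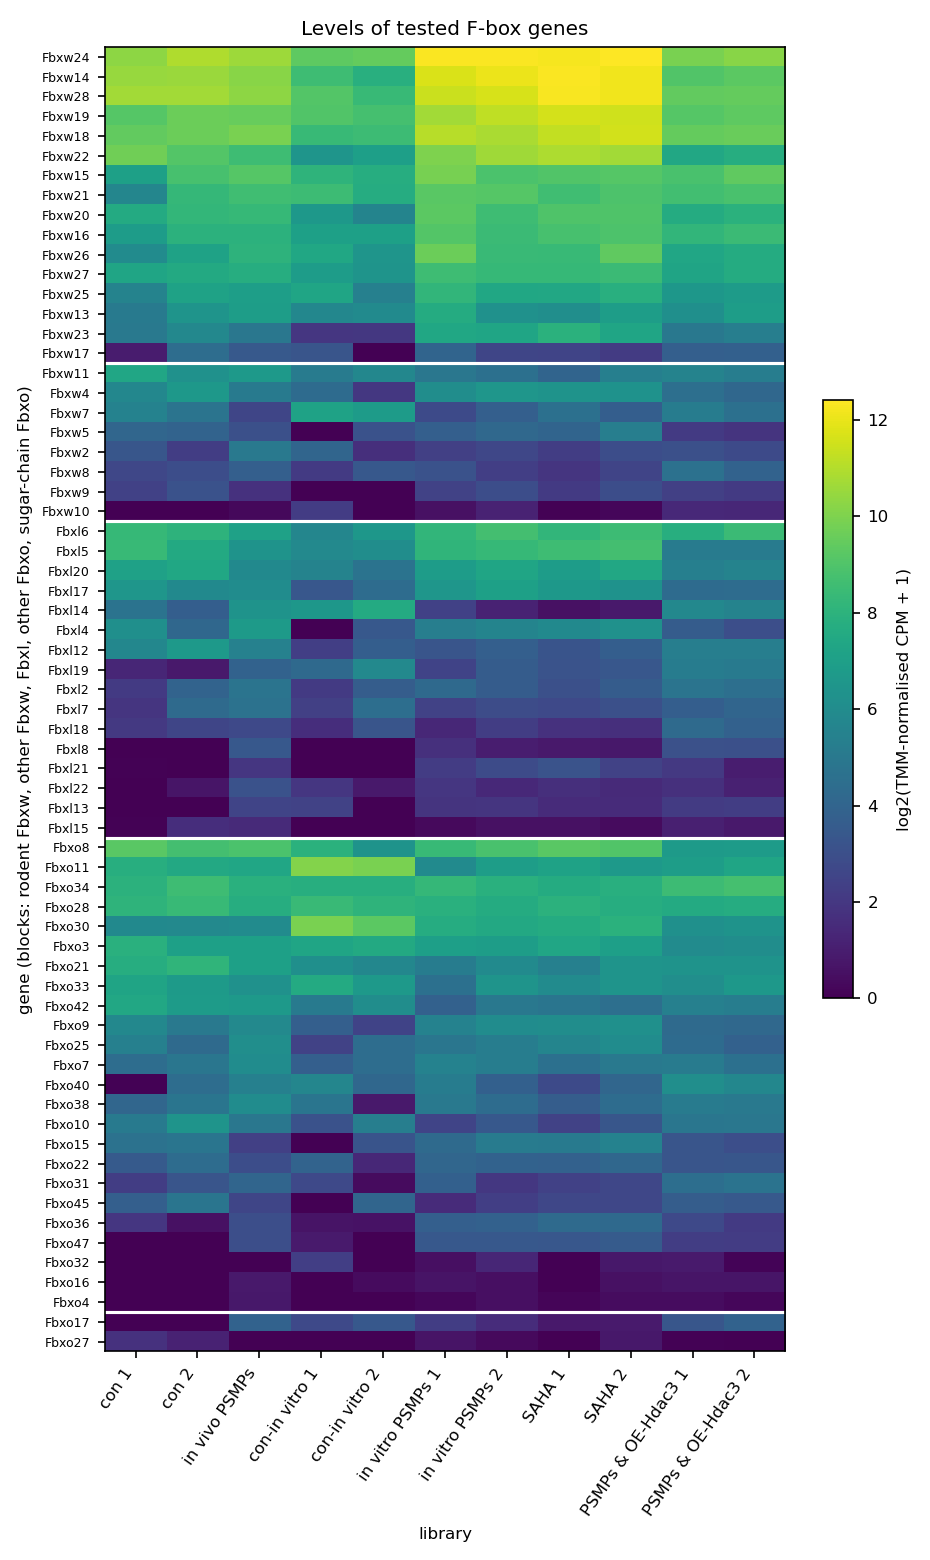
Colour gives log2(CPM + 1) of the tested members, 1 left out (rows, in blocks by subgroup and ordered by mean level) in the 11 libraries (columns). The rodent Fbxw block at the top is brightest in in vitro PSMPs and SAHA, and Fbxo30 and Fbxo11 stand out in con-in vitro.

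Exposure in culture was accompanied by more RNA of the rodent Fbxw genes and less RNA of 4 other receptors, Fbxo11, Fbxo30, Fbxl14 and Fbxw7. Against con-in vitro, 19 of the 67 tested members rose in in vitro PSMPs and 4 fell, beside 8.57% of all genes tested that rose and 6.78% that fell (15.4% in either direction). The rodent Fbxw genes made up 11 of the 19 rises, and all 16 had fitted values above 0. Their median log2 difference was 2.12, against 0.71 over all genes tested. Scaled by library totals instead of TMM factors, the median of all genes moved to 1.70 and that of the rodent Fbxw genes to 3.14, with 13 rises. The 12 oocyte markers summed to 28180 and 36897 CPM in in vitro PSMPs, against 10036 and 10579 CPM in con-in vitro, and the part of that difference in these rises was not tested.

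Fbxw24 stood at 656 and 707 CPM in con-in vitro and at 5228 and 5112 CPM in in vitro PSMPs, a log2 rise of 2.92 ± 0.32 (adjusted p = 0.000482). Fbxw14 went from 379 and 229.5 CPM to 3399.5 and 4202 CPM (log2 3.64 ± 0.35, adjusted p = 0.000261). Fbxw28, whose promoter was the most like that of Fbxw14 among those compared, went from 546 and 326 CPM to 2788 and 3259 CPM (log2 2.79 ± 0.32, adjusted p = 0.000673). For these 3 genes the lowest exposed library lay above the highest control library several times over. Fbxw18 (329 and 360.4 CPM against 2191 and 1856 CPM) rose by 2.55 ± 0.28 and Fbxw22 (89.3 and 126 CPM against 1024 and 1624 CPM) by 3.62 ± 0.40 on the log2 scale. The steepest rise among the rodent Fbxw genes was that of Fbxw23, which stood at 2.97 and 3.01 CPM in con-in vitro (21 counts in all) and at 169 and 157 CPM in in vitro PSMPs (log2 5.77 ± 0.52, adjusted p = 0.000217). Fbxw16, Fbxw19, Fbxw20, Fbxw26 and Fbxw27 rose by log2 1.77 to 2.80. The 5 that did not pass the test were Fbxw13, Fbxw15, Fbxw17, Fbxw21 and Fbxw25, with log2 values of 1.04 (Fbxw21) to 1.57 (Fbxw15).

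Of the other members, 8 rose. Fbxl5 (ENSMUSG00000039753.16, chr5:43744615-43821638), the iron-sensing receptor that targets the iron regulatory proteins, stood at 57.0 and 66.7 CPM in con-in vitro and at 281 and 313 CPM in in vitro PSMPs (log2 2.26 ± 0.36, adjusted p = 0.00328). Fbxl17, which removes wrongly paired BTB-domain proteins, went from 9.50 and 20.2 CPM to 90.5 and 133 CPM (log2 2.91 ± 0.52, adjusted p = 0.00614). Fbxl6, Fbxl20, Fbxo9, Fbxo36, Fbxw4 and Fbxw9 rose as well, Fbxw9 from 0 counts in both con-in vitro libraries to 4.38 and 6.54 CPM, at least 12.8-fold when 0 is replaced by 3 counts for the group.

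The 4 that fell had their highest levels in con-in vitro, above each of the other 9 libraries, an order found in 8.45% of all genes tested. Fbxo11 (ENSMUSG00000005371.15, chr17:87990859-88065291), a receptor for the transcriptional repressor BCL6, stood at 1112 and 978 CPM in con-in vitro and at 60.6 and 119.7 CPM in in vitro PSMPs (log2 -3.54 ± 0.43, adjusted p = 0.000909). Fbxo30 (ENSMUSG00000047648.13, chr10:11281330-11298052), known to act on the spindle motor Eg5, went from 952 and 629 CPM to 203 and 180.1 CPM (log2 -2.04 ± 0.33, adjusted p = 0.00354). Fbxl14 (ENSMUSG00000030019.6, chr6:119479668-119482630), a receptor for the Snail transcription factors, stood at 93.5 and 189 CPM against 4.30 and 1.29 CPM (log2 -5.66 ± 0.81, adjusted p = 0.00213). Fbxw7 (ENSMUSG00000028086.15, chr3:84815268-84979198), the receptor for cyclin E, Myc and Notch, stood at 143 and 112 CPM against 6.0 and 12.8 CPM (log2 -3.76 ± 0.64, adjusted p = 0.00514). None of these 4 overlapped between the groups. All 4 calls and their direction held with library totals, where the shift of the whole scale is against them. The count of members called was 16 to 30 when each deposited column was left out in turn.

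SAHA was set against the same control and shares its libraries with the comparison above, so the 2 sets of values are given side by side and are not independent. In SAHA minus con-in vitro, 21 members rose and 4 fell, beside 11.7% and 8.14% of all genes tested (19.8% in either direction). Of the rodent Fbxw genes 11 rose (median log2 2.32, against 0.66 over all genes tested). Fbxw14 stood at 5162 and 4558 CPM in SAHA (log2 4.00 ± 0.35, adjusted p = 0.000193), Fbxw28 at 4958 and 4595 CPM (log2 3.45 ± 0.33, adjusted p = 0.000269) and Fbxw24 at 4860.2 and 5463 CPM (log2 2.92 ± 0.32, adjusted p = 0.000422). Fbxw23 stood at 239 and 158 CPM (log2 6.05 ± 0.52, adjusted p = 0.000183). Fbxw22 and Fbxw18 rose by 4.06 ± 0.41 and 3.00 ± 0.29 on the log2 scale. Fbxw13, Fbxw15, Fbxw17, Fbxw21 and Fbxw25 did not pass. The 4 falls were those of Fbxl14, Fbxo11, Fbxw7 and Fbxo30. Fbxl14 stood at 0.453 and 0.796 CPM in SAHA, 22 counts in all (log2 -7.80 ± 0.90, adjusted p = 0.00065), and Fbxo11 at 139.9 and 101 CPM (log2 -3.12 ± 0.42, adjusted p = 0.00127). Fbxw7 stood at 22.6 and 11.9 CPM (log2 -2.88 ± 0.62, adjusted p = 0.013). Members that rose here included Fbxl5 (376 and 417 CPM, log2 2.68 ± 0.36) and Fbxl21, which was at 0 counts in con-in vitro and 8.15 and 4.49 CPM in SAHA, at least 14.8-fold higher. Without SAHA replicate 1 the number of members called was 14, and without SAHA replicate 2 it was 13.

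Against con, the other candidate control, SAHA showed 19 members that rose and 6 that fell, beside 20.2% and 6.75% of all genes tested (27% in either direction). Here 10 rodent Fbxw genes rose, with a median log2 difference of 1.36, against 0.59 over all genes tested. The oocyte markers summed to 37372 and 41303 CPM in SAHA and to 29455 and 31201 CPM in con. Single markers moved both ways. Gdf9 stood at 4456 and 4830 CPM in SAHA against 15251 and 13142 CPM in con, and Mos was lower too. Zp2 stood at 5392 and 5664 CPM against 118 and 602 CPM, and Bmp15 at 6099 and 6888 CPM against 1845 and 2146.5 CPM. Zp1, Zp3, Nlrp5, Padi6 and Dppa3 were higher as well, while Oosp1, Ooep and Figla overlapped. The part of these markers in the rises was not tested. Fbxw19 stood at 559 and 792 CPM in con and at 3155 and 2942 CPM in SAHA (log2 2.17 ± 0.32, adjusted p = 0.0054). Fbxw18 stood at 694 and 789.5 CPM in con and at 2464 and 3036 CPM in SAHA (log2 1.89 ± 0.28, adjusted p = 0.00511). Fbxw24 (1269 and 1960.1 CPM in con) rose by 1.68 ± 0.30 and Fbxw14 (1432 and 1513 CPM in con) by 1.72 ± 0.32 on the log2 scale. The groups did not overlap for any of these 4 genes. Fbxw20, which rose against con-in vitro, did not pass against con.

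For Fbxo30 the direction depended on the control. It stood at 195 and 246 CPM in SAHA, above con (57.8 and 56.1 CPM, log2 1.95 ± 0.33, adjusted p = 0.00762) and below con-in vitro (log2 -1.84 ± 0.33, adjusted p = 0.00501). Fbxl14 fell against both, from 25.8 and 12 CPM in con (log2 -4.90 ± 0.80, adjusted p = 0.0074). Fbxw11, which encodes a beta-TrCP protein that targets beta-catenin and IkappaB, was at 162 and 78 CPM in con, against 15.3 and 39.7 CPM under SAHA (log2 -2.13 ± 0.59, adjusted p = 0.0293). Fbxo42, known to act on p53, was at 173 and 113 CPM in con, against 27.8 and 22.4 CPM under SAHA, and fell by 2.51 ± 0.55 on the log2 scale. Fbxo21 (214 and 281 CPM against 41.4 and 84.2 CPM) fell by 1.98 ± 0.46, and Fbxl12 (53.5 and 101 CPM against 8.37 and 11.9 CPM) by 2.93 ± 0.69. Fbxo10, a receptor for BCL2, stood at 32.1 and 83.8 CPM against 4.53 and 8.99 CPM and fell by 3.10 ± 0.92. In each of these falls all SAHA libraries lay below all con libraries. Fbxo47, known from the attachment of telomeres in meiosis, was at 0 counts in con and at 9.22 and 11 CPM in SAHA, at least 228-fold higher. This comparison rested on each SAHA library: without either of them 1 member was called in place of 25, without either in vitro PSMPs library 15, and without either PSMPs & OE-Hdac3 library 10. With only the SAHA and con libraries fitted it was 9.

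**Figure D4:**
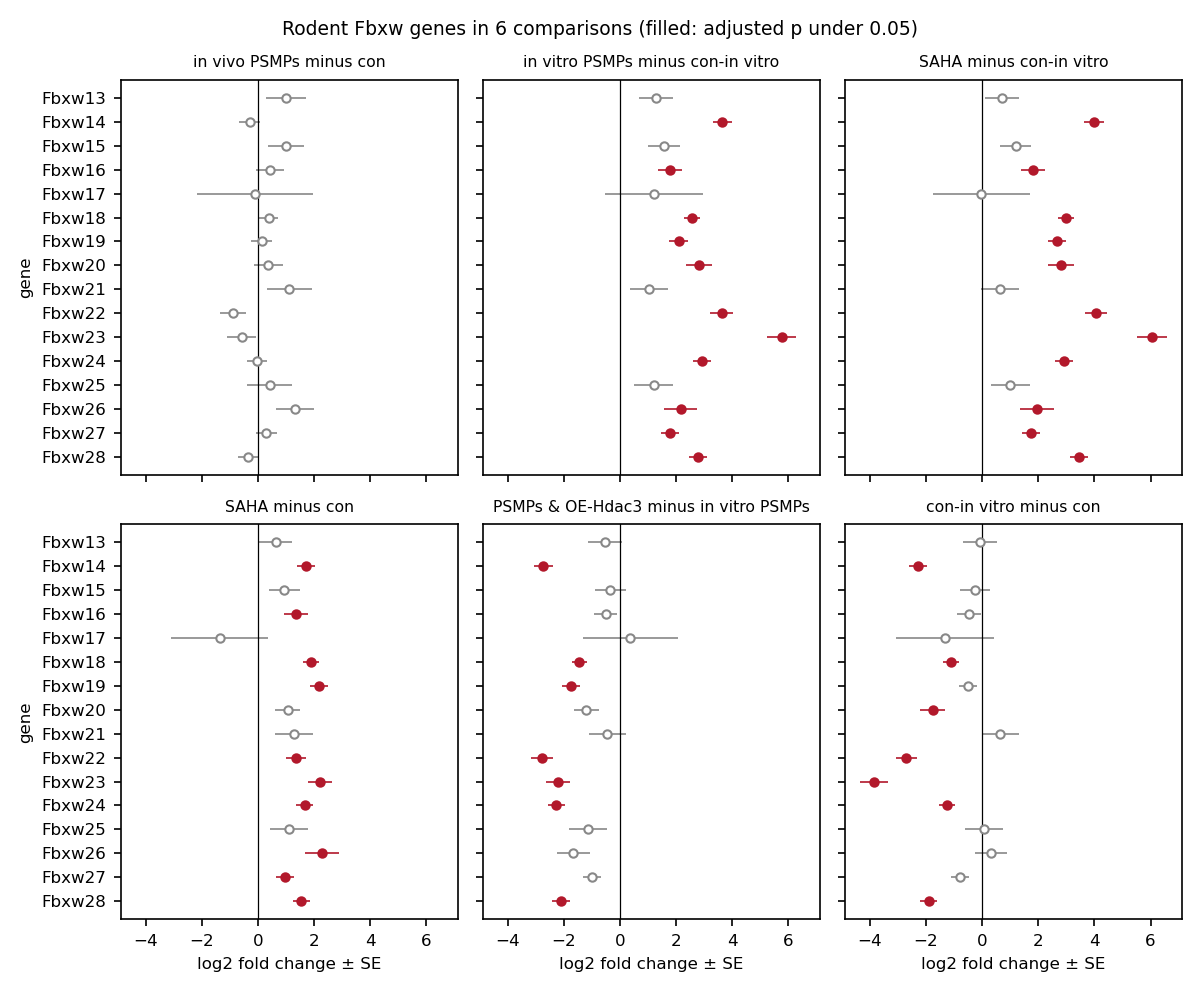
Log2 fold change with its standard error (horizontal axis) for each rodent Fbxw gene (vertical axis) in 6 comparisons, filled where the adjusted p was under 0.05. Filled points lie right of 0 in the 3 panels of in vitro PSMPs and SAHA, left of 0 for PSMPs & OE-Hdac3 and for con-in vitro, and no point is filled for in vivo PSMPs.

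The order of levels over all libraries was examined after these values had been seen. For 12 of the 16 rodent Fbxw genes, both in vitro PSMPs and both SAHA libraries lay above the other 7 libraries, con included. This order was found in 10.2% of all genes tested and in 15 of the 67 members, the other 3 being Fbxl21, Fbxo36 and Fbxo47. It was read on the TMM scale, with factors of 1.57 in both PSMPs & OE-Hdac3 libraries and 0.920 and 0.905 in SAHA. Scaled by library totals, the order was lost for Fbxw16, Fbxw20, Fbxw25, Fbxw26 and Fbxw27. The share of all genes with this order on that scale was not examined. For 9 rodent Fbxw genes both con-in vitro libraries lay below the other 9, which was the case for 10.5% of all genes tested. The 4 rodent Fbxw genes outside the first order were Fbxw13, Fbxw15, Fbxw17 and Fbxw21. Fbxw15, for example, stood at 661 CPM in a PSMPs & OE-Hdac3 library and at 478 CPM in an in vitro PSMPs library.

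With Hdac3 overexpressed, 7 of the 16 rodent Fbxw genes were lower than in in vitro PSMPs. In PSMPs & OE-Hdac3 minus in vitro PSMPs, 1 member rose and 9 fell, beside 1.85% and 2.98% of all genes tested (4.83% in either direction). Of the 9 falls 7 were rodent Fbxw genes, whose median log2 difference was -1.32, against 0.09 over all genes tested. Scaled by library totals these medians were -0.85 and 0.60, with 5 falls. The sum of the oocyte markers was lower in the same libraries, at 15221 and 18241 CPM against 28180 and 36897 CPM in in vitro PSMPs. Single markers differed in direction, and most were lower. Bmp15, an oocyte growth factor, stood at 932 and 1178 CPM against 4401 and 6451 CPM. Zp2 stood at 671 and 797 CPM against 2150 and 3328 CPM, and Nlrp5 at 417 and 343 CPM against 1952 and 2349 CPM. Zp1, Zp3, Padi6, Dppa3, Oosp1 and Mos were lower too. The mean of Gdf9 was higher, at 6090 and 8257.5 CPM against 5331 and 7092 CPM, but the groups overlapped. Ooep (1175 and 1373 against 904 and 1006 CPM) and Figla were higher without overlap. The part of the oocyte markers in these falls was not tested. Fbxw14 stood at 519 and 624 CPM in PSMPs & OE-Hdac3 (log2 -2.73 ± 0.33, adjusted p = 0.0107), Fbxw24 at 967 and 1187 CPM (log2 -2.26 ± 0.31, adjusted p = 0.0113) and Fbxw22 at 170.5 and 215 CPM (log2 -2.78 ± 0.38, adjusted p = 0.0113). Fbxw28 stood at 694 and 706 CPM (log2 -2.11 ± 0.32, adjusted p = 0.0121) and Fbxw19 at 570.3 and 649 CPM against 1666 and 2393 CPM (log2 -1.74 ± 0.32, adjusted p = 0.0203). Fbxw23 and Fbxw18 fell by 2.22 and 1.45 on the log2 scale. In none of these did the groups overlap. On the TMM scale all 4 of the genes Fbxw14, Fbxw22, Fbxw28 and Fbxw24 stood below both con libraries too, for example Fbxw14 at 1432 and 1513 CPM in con. For Fbxw24 the gap was narrow (1187 CPM against 1269 CPM in con 1), and the order was lost with library totals. PSMPs & OE-Hdac3 was not tested against con.

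Fbxl5 fell from 281 and 313 CPM to 34.8 and 35.4 CPM (log2 -3.08 ± 0.37, adjusted p = 0.0107). On the TMM scale this was below its levels in every other library. That order rests on the TMM factors, 1.57 in both PSMPs & OE-Hdac3 libraries and 0.542 and 0.572 in con-in vitro. Scaled by library totals, con-in vitro was lowest. Fbxl17 fell from 90.5 and 133 CPM to 19.6 CPM in both libraries (log2 -2.51 ± 0.50, adjusted p = 0.0261). The 1 rise was that of Fbxl14, from 4.30 and 1.29 CPM to 54.1 and 46.5 CPM (log2 4.17 ± 0.76, adjusted p = 0.0205). These calls rested on single libraries: 0 members passed without in vitro PSMPs replicate 2 or without either PSMPs & OE-Hdac3 library, 6 without in vitro PSMPs replicate 1, and 5 without either SAHA library. A fit to only the 2 groups passed 36 members, and DESeq2 passed 19.

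Against in vivo PSMPs, the other candidate for the exposed group, no member of PSMPs & OE-Hdac3 passed edgeR's quasi-likelihood test, nor did any other gene (0% of all genes tested in each direction). At an unadjusted p under 0.05 there were 11 members, and by DESeq2 1 member was called. Of the members of smallest p, Fbxo8 encodes a protein with a Sec7 domain. It stood at 478 CPM in in vivo PSMPs and at 109 and 113 CPM in PSMPs & OE-Hdac3 (log2 -2.11 ± 0.56, adjusted p = 0.191). Fbxl17 stood at 65.5 CPM against 19.6 CPM in both libraries (log2 -1.74 ± 0.56, adjusted p = 0.24). On the higher side Fbxw7 stood at 5.13 CPM against 35.9 and 23.3 CPM (log2 2.53 ± 0.80, adjusted p = 0.239) and Fbxl6 at 134 CPM against 219 and 354 CPM. The exposed group is a single sample here, and with only these groups fitted 32 members passed.

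In the animal, no rodent Fbxw gene passed the test with all libraries fitted. In in vivo PSMPs minus con, 3 of the 67 members rose and 0 fell, beside 4.59% of all genes tested that rose and 0.287% that fell (4.88% in either direction). Of the rodent Fbxw genes 0 of 16 passed by edgeR's quasi-likelihood test, 0 at an unadjusted p under 0.05 and 0 by DESeq2. Their median log2 difference was 0.34, against 0.25 over all genes tested. It rested on the con libraries: without con replicate 2 the median was 0.59 and 2 rodent Fbxw genes rose, and without con replicate 1 it was -0.05 and 0 passed. Fbxw24 stood at 1269 and 1960.1 CPM in con and at 1568 CPM in in vivo PSMPs (log2 -0.04 ± 0.36), and Fbxw14 at 1432 and 1513 CPM against 1199 CPM (log2 -0.30 ± 0.39). Several genes of the cluster differed widely between the con libraries, such as Fbxw21 at 51.4 and 309 CPM and Fbxw15 at 133 and 439.8 CPM, which limits what this comparison can detect.

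The 3 members that rose were all at 0 counts in both con libraries. Fbxo17, of the sugar-chain subfamily, stood at 14.0 CPM in in vivo PSMPs, at least 316-fold higher (adjusted p = 0.0453). Fbxl8, a receptor for cyclin D3, stood at 9.80 CPM, at least 221-fold higher, and Fbxo47 at 7.01 CPM, at least 158-fold higher (adjusted p = 0.0463 for both). Among members that did not pass, Fbxl5 stood at 325 and 183 CPM in con and 81.5 CPM in in vivo PSMPs (log2 -1.64 ± 0.45, adjusted p = 0.0612), and Fbxw7 at 43.8 and 26.1 CPM against 5.13 CPM (log2 -2.77 ± 0.82, adjusted p = 0.0701). More genes were detected in in vivo PSMPs (17722 and 17730 in its columns) than in con (12316 and 12843). Of 20 cumulus and granulosa markers 16 had counts in in vivo PSMPs and summed to 135 CPM, against 4 of 20 with 42.7 and 36.1 CPM in con, and their part in these 3 rises was not tested. Without any one of the in vitro PSMPs, SAHA or PSMPs & OE-Hdac3 libraries 0 members passed, without con replicate 2 it was 13, without con replicate 1 or either con-in vitro library 7, and without either in vivo PSMPs column 1. With the replicate number as a block and each column as its own library, 9 members rose and 5 fell, and with only these groups fitted 0 members passed.

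The effects of the 2 exposures share no library, and their difference was tested directly. In the in vivo effect minus the in vitro effect, 5 members were higher and 12 lower, beside 6.4% and 4.87% of all genes tested (11.3% in either direction). Of the 12, 7 were rodent Fbxw genes (median of the 16: log2 -1.71, against -0.06 over all genes tested). They were Fbxw23 (-6.34 ± 0.78, adjusted p = 0.00244), Fbxw22 (-4.51 ± 0.64), Fbxw14 (-3.94 ± 0.54), Fbxw28 (-3.14 ± 0.51), Fbxw24 (-2.97 ± 0.50), Fbxw18 (-2.17 ± 0.44) and Fbxw19 (-1.95 ± 0.51). Fbxl5 (-3.90 ± 0.59, adjusted p = 0.0056) was lower as well. On the other side, Fbxl14 stood at 83.0 CPM in in vivo PSMPs, above con, and far below its control in in vitro PSMPs (difference 7.79 ± 1.10, adjusted p = 0.00444). Fbxo11 (3.22 ± 0.60), Fbxl19 (5.78 ± 1.26) and Fbxo30 (2.16 ± 0.49) were higher too, as was Fbxo17, whose con libraries were at 0. Without in vitro PSMPs replicate 2 there were 9 calls in place of 17.

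The controls also differed from each other, and con-in vitro is the control of the comparisons in culture above. In con-in vitro minus con, 9 members rose and 17 fell, beside 14.7% and 10.5% of all genes tested (25.1% in either direction). Scaled by library totals the split was 6 and 22, while the median of all genes moved from 0 to -0.49. Of the rodent Fbxw genes 7 fell and 0 rose (median log2 -0.94). Fbxw23 fell from 31.2 and 55 CPM to 2.97 and 3.01 CPM (log2 -3.85 ± 0.48, adjusted p = 0.000848), Fbxw22 from 849 and 545 CPM to 89.3 and 126 CPM (log2 -2.70 ± 0.38, adjusted p = 0.00174), and Fbxw14 by 2.27 ± 0.33 on the log2 scale. Fbxl5 and Fbxl20 fell by 2.04 ± 0.36 and 2.07 ± 0.43. Fbxo30 rose from 57.8 and 56.1 CPM to 952 and 629 CPM (log2 3.79 ± 0.35, adjusted p = 0.000227) and Fbxo11 from 222 and 181 CPM to 1112 and 978 CPM (log2 2.37 ± 0.41, adjusted p = 0.00407). Fbxl19, whose protein binds unmethylated CpG islands, rose from 1.53 and 0.824 CPM to 17.8 and 57.1 CPM (log2 4.99 ± 0.93, adjusted p = 0.00607). Fbxl14 rose from 25.8 and 12 CPM to 93.5 and 189 CPM (log2 2.90 ± 0.71, adjusted p = 0.0195), and Fbxo17 from 0 counts to 5.64 and 9.56 CPM, at least 171-fold. Fbxw7 rose by 1.86 ± 0.59 with an adjusted p of 0.0479, and it did not pass in 11 of the 12 fits without 1 column. The groups overlapped for 3 of the rises, Fbxo47, Fbxw10 and Fbxl13, each of which rested on con-in vitro replicate 1. Depth was 6.22 M and 6.40 M counts in con-in vitro and 30.7 M and 35.6 M in con, and the part of depth in these differences was not tested. With only these 4 libraries fitted 5 members passed, in place of 26.

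**Figure D5:**
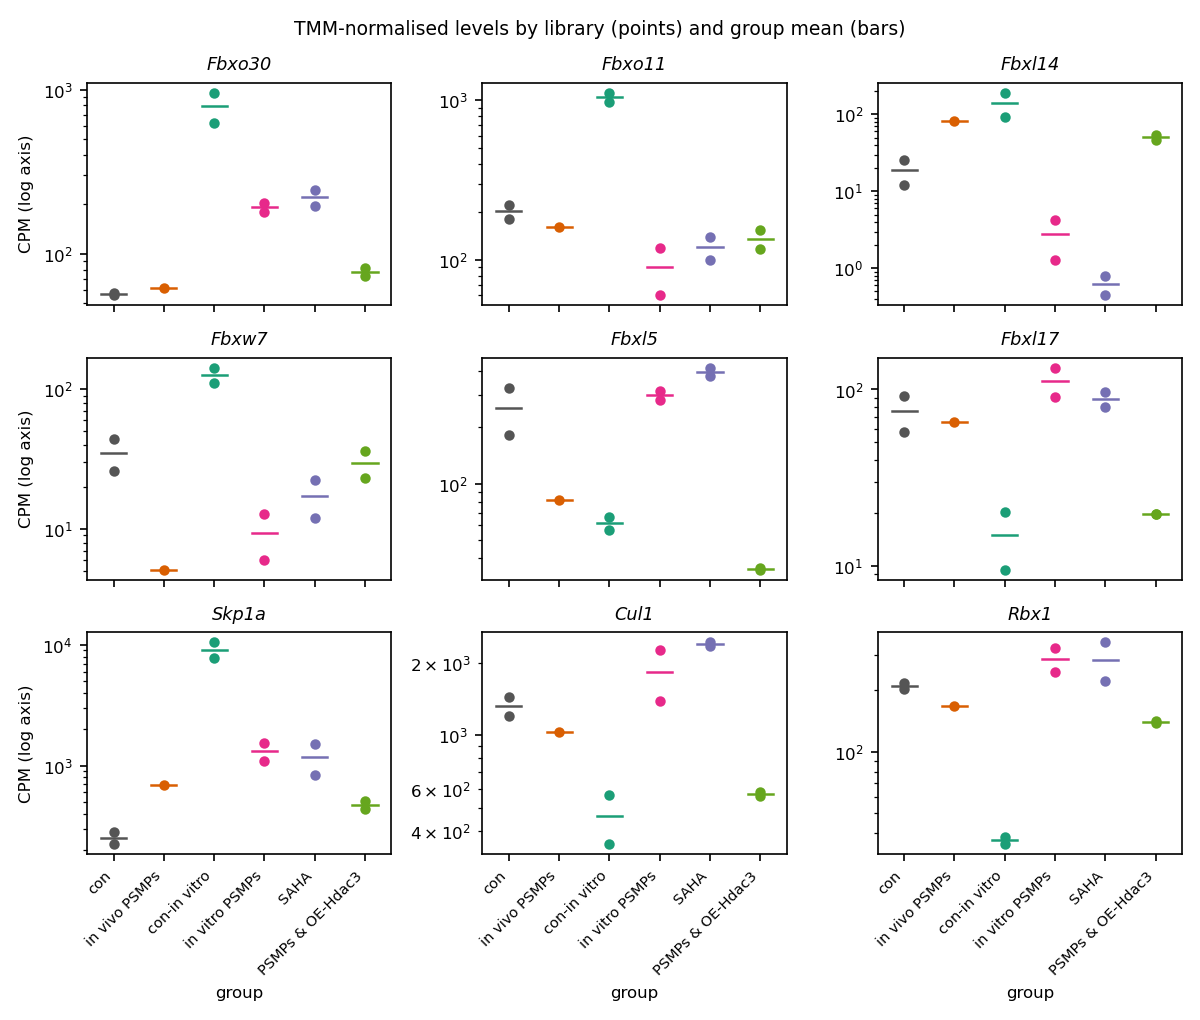
CPM (log axis) in each library (points) and the mean of each group (bars) for 6 F-box genes and the SCF core genes Skp1a, Cul1 and Rbx1. In con-in vitro the points of Fbxo30, Fbxo11, Fbxw7 and Skp1a are the highest and those of Rbx1 the lowest of the panel, while the Cul1 points lie at or near those of PSMPs & OE-Hdac3.

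In SCF ligases the receptors work with the rest of the machinery. That machinery was read from a list of 38 names, 37 of them in the file and tested. In con-in vitro minus con 7 rose and 12 fell, where 25.1% of all genes tested passed in either direction. In in vitro PSMPs minus con-in vitro 10 rose and 5 fell, beside 15.4% of all genes, and in SAHA minus con-in vitro 11 rose and 4 fell, beside 19.8%. Skp1a, the adaptor that every F-box protein binds, had levels, in CPM, of 10459 and 7788 in con-in vitro, 224 and 283 in con, 689 in in vivo PSMPs, 1554 and 1090.0 in in vitro PSMPs, 838 and 1517 in SAHA, and 510.1 and 437 in PSMPs & OE-Hdac3. It rose by 5.17 ± 0.43 from con to con-in vitro (adjusted p = 0.000167) and was lower in in vitro PSMPs (log2 -2.79 ± 0.39, adjusted p = 0.00182). Cand1, which exchanges F-box proteins on the scaffold, was high in con-in vitro as well, at 1036 and 699 CPM against 53.5 to 190.4 CPM elsewhere. The scaffold Cul1 and the RING protein Rbx1 rose from con-in vitro to in vitro PSMPs, but for both genes con-in vitro also lay below con. Their con levels were 1438 and 1199 CPM for Cul1 and 204 and 218 CPM for Rbx1. The exposed libraries overlapped these con levels for Cul1 and lay above them for Rbx1. Cul1 stood at 566 and 352 CPM in con-in vitro and at 1390.3 and 2266 CPM in in vitro PSMPs (log2 1.99 ± 0.35, adjusted p = 0.00608). Rbx1 stood at 38.3 and 35.2 CPM in con-in vitro and at 247 and 323 CPM in in vitro PSMPs (log2 2.95 ± 0.35, adjusted p = 0.000764). In PSMPs & OE-Hdac3 minus in vitro PSMPs 2 of the 37 rose and 5 fell, beside 4.83% of all genes, Cul1 among the falls (581 and 561 CPM, log2 -1.68 ± 0.35, adjusted p = 0.0297). In SAHA minus con 4 rose and 5 fell, a share near the 27% of all genes. In in vivo PSMPs minus con Ube2f was the 1 that passed, beside 4.88% of all genes, and in PSMPs & OE-Hdac3 minus in vivo PSMPs 0 passed, as for all genes.

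Of 7 F-box genes that carry other names, 6 were tested, and Kdm2a, a histone demethylase with an F-box, was the one called in any comparison. Its levels were 0.174 and 0.0515 CPM in con, against 18.4 and 40.7 CPM in con-in vitro (log2 7.98 ± 1.21, adjusted p = 0.00227). Skp2, the receptor for the cell cycle inhibitor p27, ranged from 10.6 to 56.1 CPM, Btrc, the paralog of Fbxw11, from 19.9 to 145 CPM, and Ccnf, which encodes cyclin F, from 0.0695 to 37.2 CPM, and none of these 3 passed in any comparison. Among the members, Fbxo15, a marker of pluripotent cells, ranged from 0 to 44.1 CPM and did not pass in any comparison. Fbxo32, the receptor atrogin-1 of wasting muscle, was at most 3.86 CPM and at 0 in con and in vivo PSMPs.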

How the data were processed

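Per the labels' protocols, full-length cDNA was amplified from whole oocytes with a single-cell kit and made into libraries with a transposase kit, so counts follow amplified cDNA. Counts per gene deposited by the authors (55401 genes, whole numbers) were used as they stand. The submitters' processing notes name fastp 0.12.4, HISAT2, featureCounts, SAMtools and DESeq2 with the mouse build mm10, without their role. The treatment of strand and of reads matching several genes is not given in the sources used here. CUT&Tag libraries of the series were not analysed here.

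Genes were kept by edgeR's filterByExpr with a minimum count of 10 in the 12 deposited columns (16736 genes). The in vivo PSMPs columns were then merged as their rounded mean (n = 1, assumed to vary like the other groups), and 1 model with a coefficient per group was fitted to 11 libraries with TMM factors (edgeR 4.0.16, limma 3.58.1, R 4.3.3, robust quasi-likelihood, 5 residual degrees of freedom, biological coefficient of variation 71.9%). Benjamini-Hochberg adjustment ran over all genes tested, with 0.05 as threshold, and each standard error is the size of the log2 fold change divided by the root of F. A gene listed at 0 in a group has a bound on its fold change against 3 counts over the group, which covers counting error only and corresponds to 0.0773 to 0.890 CPM (TMM-scaled) in a single library. The procedure was tested on simulated data.

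Members and lists were chosen with earlier results of these data known. Values in every library are given for the 12 members of highest CPM per kilobase, for up to 6 members per direction and comparison (smallest p, at least 5 CPM in the higher group, no overlap) or, where none passed, the 2 of smallest p, and for members and partners with a known role. Kdm2a, Cand1, Ube2f, Fbxw17, Fbxl21 and, in the comparisons with con-in vitro, Fbxl5 and Fbxl17 were singled out after their values were seen, as were the rises and falls listed without library values. Alternatives were DESeq2 size factors, library totals, no filter, a filter at 50 counts, DESeq2 1.42.0, a replicate block, each column as its own library, a fit to the groups of a comparison, and leaving out each column. Fits without the con-in vitro or the in vivo PSMPs group were added after the data were seen. Values of 1 member that the rule names are not reported here.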

Additional observations from a re-analysis of the deposited data

Results flagged for a closer look

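The effect of PSMPs in the animal minus their effect in culture differed from 0 by edgeR's quasi-likelihood test (Benjamini-Hochberg adjusted p under 0.05) for 17 of the 67 tested members. This compares 1 in vivo sample and 2 con libraries with 2 in vitro PSMPs and 2 con-in vitro libraries. On the log2 scale the difference was below 0 for 7 rodent Fbxw genes: -6.34 for Fbxw23, -4.51 for Fbxw22, -3.94 for Fbxw14, -3.14 for Fbxw28, -2.97 for Fbxw24, -2.17 for Fbxw18 and -1.95 for Fbxw19. It was below 0 for 5 others too: -10.96 for Fbxw9, -3.90 for Fbxl5, -3.34 for Fbxl6, -3.29 for Fbxl20 and -3.10 for Fbxl17. The difference was above 0 for Fbxo17 at 12.39, Fbxl14 at 7.79, Fbxl19 at 5.78, Fbxo11 at 3.22 and Fbxo30 at 2.16. For Fbxw9 both con-in vitro libraries, and for Fbxo17 both con libraries, were at 0, so these 2 fitted values depend on the prior count and are no measure of size. The cause was not tested.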

How the results depend on the processing

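The 65 member and comparison pairs named by rule gave 723 values under the alternatives. Of these, 667 kept their direction and side of the threshold, 56 kept the direction but lost the call, and 0 reversed. Of the 12 fits without 1 column, only those of lowest and highest log2 entered this count for each pair. It therefore leaves out further lost calls. Over all 12, Fbxw14 in in vitro PSMPs minus con-in vitro kept its call in 12. Fbxl8 in in vivo PSMPs minus con kept it in 4, and Fbxw7 in con-in vitro minus con in 1. For in vivo PSMPs minus con the number of members called was 6 with library totals, 9 by DESeq2 and 9 without the con-in vitro group, 14 with each column as its own library, and 0 with only the groups of the comparison, against 3. It was 9 in SAHA minus con, 5 in con-in vitro minus con and 4 in the difference of the exposure effects with only the groups compared. In PSMPs & OE-Hdac3 minus in vitro PSMPs it was 19 by DESeq2 and 36 with only those groups, and against in vivo PSMPs 1 by DESeq2, 5 with each column as its own library and 32 with only those groups. Over all genes, in vivo PSMPs minus con gave 817 calls, against 1204 with library totals, 2678 by DESeq2, 4180 with each column as its own library and 0 with only those groups, and PSMPs & OE-Hdac3 minus in vitro PSMPs gave 808, against 2395 by DESeq2 and 5491 with only those groups. SAHA minus con gave 4511, against 3000 with a filter at 50 counts. Leaving out each column gave 0 to 13 members in in vivo PSMPs minus con, 16 to 30 in in vitro PSMPs minus con-in vitro, 13 to 33 in SAHA minus con-in vitro, 1 to 25 in SAHA minus con, 0 to 14 and 0 to 0 in PSMPs & OE-Hdac3 against in vitro and in vivo PSMPs, 19 to 31 in con-in vitro minus con, and 9 to 24 in the difference of the effects. Replicate numbers gave no pairing (correlations of deviations -0.20 to 0.036 over 10 pairs of groups). With the replicate number as a block and each column as its own library, 14 members were called in in vivo PSMPs minus con and 1 in PSMPs & OE-Hdac3 minus in vivo PSMPs, and the other 6 counts stayed within 1.5 times. Without the rodent Fbxw genes the members held 0.358% and 0.367% of the counts in con, 0.364% and 0.365% in in vivo PSMPs, 0.219% and 0.198% in con-in vitro, 0.323% and 0.303% in in vitro PSMPs, 0.282% and 0.302% in SAHA, and 0.325% and 0.358% in PSMPs & OE-Hdac3. Depth limits low members most in con-in vitro, where 3 counts are up to 0.890 CPM. The cause of these shifts was not tested.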
